A study of Mus musculus with 20 samples.

Results

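The transcript levels of 10 cathepsins were followed in the RPE-choroid eyecup of the mouse: *Ctsa*, *Ctsb*, *Ctsc*, *Ctsd*, *Ctsf*, *Ctsh*, *Ctsk*, *Ctsl*, *Ctss* and *Ctsz*. They were chosen by gene symbol from a table of 24411 genes, by no threshold on a measured value, and all 10 passed the filter on low reads that left 18807 genes for the tests. The eyecups came from mice labelled with the C57BL/6 background (C57BL/6J for the *Stra6*-/- mice, by the study's methods), either wild type (WT) or lacking STRA6 (*Stra6*-/-), a membrane receptor through which cells take up vitamin A. The pups stayed with dams on standard chow until weaning at about 28 days and then received a vitamin A-sufficient diet (VAS, 4 IU/g) or a vitamin A-deficient diet (VAD, 0 IU/g) for 12 weeks. All mice were perfused with saline, the neural retina was peeled off, and the eyecups of both eyes of 1 mouse were pooled into 1 library of mRNA, with 5 libraries in each of the 4 groups VAS WT, VAD WT, VAS *Stra6*-/- and VAD *Stra6*-/-. The WT mice were obtained from a supplier and the *Stra6*-/- mice from a separate colony, so that colony and genotype cannot be told apart, and which bases of *Stra6* the mutation removes is not given in the sources used here.

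Cathepsins are proteases of the endosome and lysosome. Most are made as inactive proenzymes, carry mannose 6-phosphate, are sorted by receptors for that sugar into endosomes, and become active as the compartment acidifies. They differ in catalytic class and in where they cut: *Ctsd* is an aspartic endopeptidase, *Ctsa* a serine carboxypeptidase, and the other 8 are papain-like cysteine proteases. The retinal pigment epithelium (RPE) engulfs and digests the shed tips of photoreceptor outer segments every day, and cathepsin D is a main protease of that digestion. Macrophages, microglia, osteoclasts and fibroblasts also make cathepsins, and the RPE-choroid eyecup holds several of these cell types next to the RPE.

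Many lysosomal genes carry the E-box CACGTG close to their start, the core of the element bound by TFEB, TFE3 and MITF. RefSeq promoter windows of 300 bases (250 before to 50 after an annotated start, GRCm38.p6) were matched for 8 of the 10 members, and *Ctsb* and *Ctsh* had none. CACGTG, which reads the same on both strands, was present in windows of 4 of the 8 members, *Ctsa*, *Ctsd*, *Ctsf* and *Ctsl*, and in 8.09% of the 27025 genes with such a window. Those 4 windows are shown because they carry the letters, from 250 bases before the RefSeq start, counted as 0, to base 29 after it, with CACGTG in capitals. The *Ctsd* window is chr7:142387798-142388077 on the minus strand, the *Ctsa* window, the later of its 2 starts, is chr2:164833523-164833802 on the plus strand, the *Ctsf* window is chr19:4854915-4855194 on the plus strand, and the *Ctsl* window is chr13:64370491-64370770 on the minus strand. By the GENCODE spans given below, the *Ctsl* window and this *Ctsa* window lie wholly inside the gene, after its outermost start.
Ctsd: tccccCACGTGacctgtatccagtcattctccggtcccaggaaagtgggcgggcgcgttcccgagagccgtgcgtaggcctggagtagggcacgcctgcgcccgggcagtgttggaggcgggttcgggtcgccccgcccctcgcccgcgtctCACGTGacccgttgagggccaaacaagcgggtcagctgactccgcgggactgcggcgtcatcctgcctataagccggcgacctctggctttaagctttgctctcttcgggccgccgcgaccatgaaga
Ctsa: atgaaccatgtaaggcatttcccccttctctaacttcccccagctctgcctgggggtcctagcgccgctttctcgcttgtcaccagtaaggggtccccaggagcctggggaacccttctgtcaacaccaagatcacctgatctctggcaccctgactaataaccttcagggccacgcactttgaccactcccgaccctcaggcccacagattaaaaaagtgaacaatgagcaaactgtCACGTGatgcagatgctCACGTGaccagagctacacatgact
Ctsf: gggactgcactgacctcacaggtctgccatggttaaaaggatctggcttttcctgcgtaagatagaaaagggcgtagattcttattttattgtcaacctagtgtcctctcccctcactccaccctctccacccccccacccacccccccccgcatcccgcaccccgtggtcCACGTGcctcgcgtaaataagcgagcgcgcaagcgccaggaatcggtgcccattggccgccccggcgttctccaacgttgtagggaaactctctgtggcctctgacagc
Ctsl: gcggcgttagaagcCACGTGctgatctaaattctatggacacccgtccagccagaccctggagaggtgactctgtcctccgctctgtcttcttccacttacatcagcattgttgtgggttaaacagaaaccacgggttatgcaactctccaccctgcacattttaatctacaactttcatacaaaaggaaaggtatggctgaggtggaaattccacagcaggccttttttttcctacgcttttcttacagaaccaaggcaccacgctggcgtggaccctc

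The E-box began at bases -245 and -98 in the *Ctsd* window, at -12 and 5 in the *Ctsa* window, at -79 in the *Ctsf* window and at -236 in the *Ctsl* window. The longer form TCACGTGA was found in the windows of *Ctsa* and *Ctsd* and in those of 1.12% of genes. TCATGTG, on either strand, was found for *Ctsa* and *Ctss* (4.31% of genes), GAGGAAGT, on either strand, for *Ctsc* and *Ctss* (3.69% of genes), and TGANTCA for none of them (8.97% of genes). TCACGTGA contains CACGTG, so that these counts overlap. A match describes the letters of the window and is not a measured binding site.

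In GENCODE vM21 (GRCm38) the 10 genes lay on 7 chromosomes. *Ctsk* (chr3:95499256-95509362, plus strand) and *Ctss* (chr3:95526786-95556403, plus strand) were neighbours in the same orientation with 17423 bases between them. *Ctsa* (chr2:164832873-164841032, plus strand) and *Ctsz* (chr2:174427493-174439039, minus strand) shared chromosome 2, *Ctsc* (chr7:88278085-88310888, plus strand) and *Ctsd* (chr7:142375911-142388038, minus strand) shared chromosome 7, and *Ctsb* (chr14:63122462-63145923, plus strand), *Ctsf* (chr19:4855130-4860918, plus strand), *Ctsh* (chr9:90054152-90076089, plus strand) and *Ctsl* (chr13:64359337-64370890, minus strand) lay apart. Exons of 5 members shared bases with another gene. On the opposite strand these were *Ctsa* with *Pltp* (495 bases) and *Neurl2* (324 bases), *Ctsb* with *Fdft1* (774 bases), *Ctsl* with *Gm47123* (1742 bases) and *Ctsz* with *Nelfcd* (10 bases). On the same strand they were *Ctsd* with *Gm49369* (808 bases) and *Ctsl* with the processed pseudogene *Gm49230* (395 bases). Whether the libraries keep strand is not given in the sources used here, so reads from such shared bases cannot be told apart.

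The deposited values were read counts divided by 1 size factor per library, and total reads were 13331903 to 21878614 in the 19 libraries used for the count tests. *Stra6*, the targeted gene, measured 2414 to 2742 in VAS WT, 564 to 694 in VAS *Stra6*-/-, 669 to 1529 in VAD WT and 1973 to 2393 in the libraries labelled as VAD *Stra6*-/-. *Stra6* was therefore lower in the mutant libraries than in WT on the sufficient diet. In the libraries labelled as VAD *Stra6*-/- it was higher than in VAD WT, against the label, and below each VAS WT library. The libraries labelled as VAD WT gave 693, 1340.1, 697, 1529 and 669 in replicates 1 to 5, all below VAS WT (-1.49, adjusted p = 6.74e-06, limma), and replicates 1, 3 and 5 lay within or just above the VAS *Stra6*-/- range. The genotype of both VAD groups is thus known from the labels alone, and each direction given below for VAD WT or for the libraries labelled as VAD *Stra6*-/- is that of the label. VAD WT replicates 2 and 4 stood apart from replicates 1, 3 and 5 of their group, and the calls and larger values that change without them are given both ways. Although the anterior segment was cut away, cornea and surface epithelium markers summed to more than the RPE markers in all libraries but the libraries labelled as VAD *Stra6*-/-. The RPE markers were present in every group, at a summed value of 124976 to 142494 in VAS WT, 38376 to 66283 in VAD WT, 126046 to 132348 in VAS *Stra6*-/- and 538543 to 587511 in the libraries labelled as VAD *Stra6*-/-. In bulk tissue, fewer cells of a type and less RNA per cell cannot be told apart.

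Divided by exon length, *Ctsd* was the most abundant of the 10 in each group and *Ctsb* came next in each. The mean level of *Ctsd* was 11901 normalized counts per kilobase of exon in VAS WT (rank 92 of the 17976 genes with a length), 7058 in VAD WT (rank 169), 13109 in VAS *Stra6*-/- (rank 81) and 39669 in the libraries labelled as VAD *Stra6*-/- (rank 12). *Ctsb* stood at 3287 per kilobase in VAS WT and 7246 in the libraries labelled as VAD *Stra6*-/-. *Ctsc* was the lowest of the 10 in each group, between 187 in VAD WT and 410.3 in the libraries labelled as VAD *Stra6*-/-. The order of the others was not fixed. *Ctss* was 7th of 10 in VAS WT, 9th in VAD WT and 4th in the libraries labelled as VAD *Stra6*-/-, and *Ctsa* went from 6th in VAS WT to 9th there. The length joins all annotated exons of a gene, 5326 bases for *Ctsc* and 1358 for *Ctss*, and these ranks depend on it. Undivided, the VAS WT mean of *Ctsc* (1364) was above those of *Ctsk* (555) and *Ctss* (1231). In VAD WT the undivided mean of *Ctsl* (12571) was above that of *Ctsb* (11147).

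Together the 10 transcripts took 0.386 ± 0.013% (SD, n = 5) of the summed normalized value of a VAS WT library, 0.297 ± 0.0439% in VAD WT, 0.398 ± 0.00293% in VAS *Stra6*-/- and 0.918 ± 0.027% in the libraries labelled as VAD *Stra6*-/-. *Ctsd* alone took 0.149 ± 0.00795% in VAS WT and 0.469 ± 0.023% in the libraries labelled as VAD *Stra6*-/-, so the larger share there was mainly *Ctsd*.

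**Figure D1:**
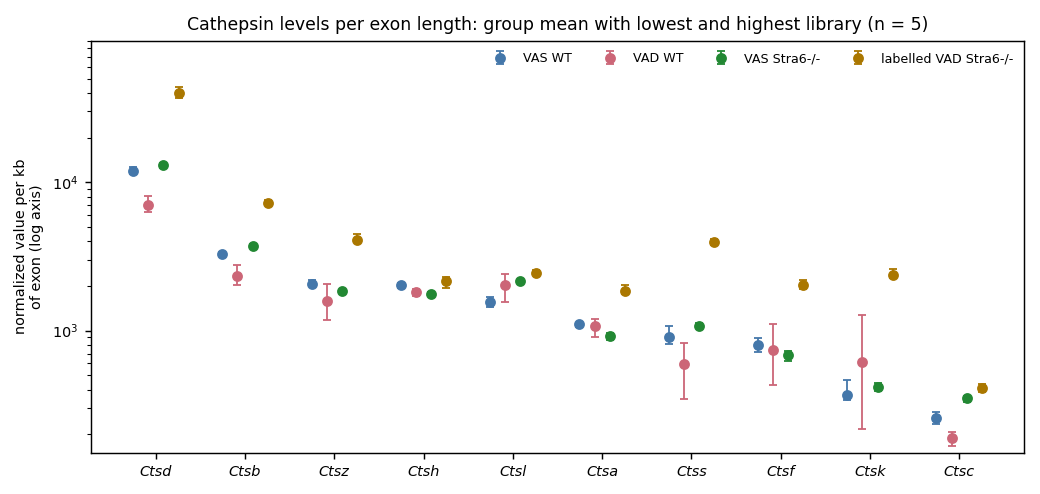
Mean level of each cathepsin in normalized counts per kilobase of exon (log axis) in the 4 groups, with bars from the lowest to the highest of 5 libraries. *Ctsd* lies at the top in each group, at 7058 in VAD WT and 39669 in the libraries labelled as VAD *Stra6*-/-, and *Ctsc* at the bottom.

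*Ctsd*, the aspartic protease, had the widest absolute range. It measured 24309, 24456, 24640.2, 26134 and 27029.6 normalized counts in VAS WT replicates 1 to 5 and 13818, 17001, 13486, 17122 and 13631 in VAD WT. The 5 VAS *Stra6*-/- libraries gave 27984, 27854, 26718, 28492 and 28372, and the libraries labelled as VAD *Stra6*-/- gave 83128, 79276, 86038, 80200.0 and 93243. The lowest of the last 5 was above each of the other 15 libraries, and the highest VAD WT library was below each VAS library. The log2 fold change of VAD WT against VAS WT was -0.76 ± 0.0954 (SE, adjusted p = 1.44e-05, limma), and that of VAD against VAS within *Stra6*-/- was 1.60 ± 0.0954 (SE, adjusted p = 6.22e-12, limma). On the sufficient diet the genotypes differed by 0.14 (adjusted p = 0.312, limma), which did not pass.

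*Psap*, which encodes prosaposin, the precursor of the saposins that help lysosomal hydrolases break down sphingolipids, had the profile most like that of *Ctsd* across the 20 libraries. It measured 24164 to 28889 in VAS WT, 13456 to 22140.0 in VAD WT, 26404 to 29560.3 in VAS *Stra6*-/- and 84339.6 to 92173 in the libraries labelled as VAD *Stra6*-/-.

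*Ctsb* cuts inside proteins and also removes dipeptides from their carboxyl end. Its values were 15494, 15425, 15963, 15659.9 and 15405 in VAS WT and 10151, 12909.7, 9657, 13182 and 9837 in VAD WT. They were 17744, 17656, 18075, 17364 and 17819.7 in VAS *Stra6*-/- and 33753, 33638, 34748, 33683 and 36012 in the libraries labelled as VAD *Stra6*-/-. No library of one group overlapped with those of another. *Ctsb* was lower in the libraries labelled as VAD WT than in VAS WT, with a log2 fold change of -0.50 ± 0.0881 (SE, adjusted p = 0.000766, limma), and higher in the libraries labelled as VAD *Stra6*-/- than in VAS *Stra6*-/-, by 0.95 ± 0.0881 (SE, adjusted p = 6.85e-09, limma). VAS *Stra6*-/- libraries lay 0.19 (adjusted p = 0.131, limma) above VAS WT on the log2 scale, which did not pass in the fit of all 20 libraries and passed without VAD WT replicates 2 and 4 (adjusted p = 4.68e-05, limma).

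*Ctss* keeps its activity at neutral pH and trims the invariant chain of MHC class II in antigen-presenting cells. It measured 1223, 1095, 1224, 1163 and 1452 in VAS WT and 736, 1112, 677, 1035 and 467 in VAD WT. It measured 1416, 1457, 1518, 1422 and 1481 in VAS *Stra6*-/- and 5437, 5351, 5405, 5159.6 and 5632 in the libraries labelled as VAD *Stra6*-/-. The last 5 values lay above all others, and VAD WT replicates 2 and 4 lay within or next to the VAS WT range while replicates 1, 3 and 5 lay below it. The diet effect was -0.67 ± 0.154 (SE, adjusted p = 0.007, limma) in WT and 1.89 ± 0.154 (SE, adjusted p = 9.68e-10, limma) in *Stra6*-/-. The fitted ratio of the libraries labelled as VAD *Stra6*-/- to VAD WT was 7.01-fold, the largest of the 10 in that pair.

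*Ctsk*, the collagen-degrading protease known from osteoclasts and also made by fibroblasts, split the VAD WT group. Its values were 516, 529.5, 518, 515 and 697 in VAS WT and 334, 1928, 376, 1707 and 328 in VAD WT. VAS *Stra6*-/- libraries had 613, 651, 589.7, 672 and 622, and the libraries labelled as VAD *Stra6*-/- had 3944, 3522, 3655, 3442 and 3394. VAD WT replicates 2 and 4 were far above replicates 1, 3 and 5, and these 3 were below each VAS WT library. The log2 fold change of VAD WT against VAS WT was 0.28 ± 0.374 (SE, adjusted p = 0.721, limma), and without replicates 2 and 4 it turned to -0.67 (adjusted p = 3.86e-06, limma). Within *Stra6*-/- the diet difference was 2.51 ± 0.374 (SE, adjusted p = 6.92e-06, limma), the largest of the 10. The summed value of 12 sclera and fibroblast markers divided VAD WT in the same way, at 50434, 174104, 52716, 178366 and 51575 in replicates 1 to 5, and was 236383 to 249597 in the libraries labelled as VAD *Stra6*-/-. Their part in the *Ctsk* values was not tested. The 9 osteoclast and bone markers summed to 366 to 441 in the libraries labelled as VAD *Stra6*-/- and to 545 to 662 in VAS WT. *Ibsp* was at 0 in each library of these 2 groups and of VAS *Stra6*-/-. *Bglap* was at 0 in each of the libraries labelled as VAD *Stra6*-/- and of VAD WT.

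*Ctsf*, a cysteine protease with an unusually long propeptide, also followed that division. It measured 1425, 1570.3, 1523, 1609 and 1775 in VAS WT and 855, 2144, 1063, 2189 and 1035 in VAD WT. VAS *Stra6*-/- gave 1399.7, 1343, 1234, 1453 and 1338, and the libraries labelled as VAD *Stra6*-/- gave 4026, 3759, 4083, 3824 and 4364. VAD WT replicates 2 and 4 were above the whole VAS WT range and replicates 1, 3 and 5 below it. The diet difference in WT was -0.23 (adjusted p = 0.531, limma) in the fit of all libraries and -0.69 (adjusted p = 4.47e-07, limma) without these 2 replicates. In *Stra6*-/- it was 1.57 ± 0.189 (SE, adjusted p = 3.73e-07, limma).

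*Ctsz*, a carboxypeptidase that removes single residues, measured 2907, 2860.0, 2976, 3026 and 3174 in VAS WT and 1693, 2960.4, 2083, 2809.9 and 1893 in VAD WT. It measured 2725, 2693, 2699, 2636 and 2607 in VAS *Stra6*-/- and 5835, 5693, 5712, 5685 and 6486 in the libraries labelled as VAD *Stra6*-/-. VAD WT replicate 2 lay within the VAS WT range and replicate 4 just under it, and replicates 1, 3 and 5 lay far below. The diet difference was -0.42 ± 0.111 (SE, adjusted p = 0.0198, limma) in WT and 1.14 ± 0.111 (SE, adjusted p = 1.68e-08, limma) in *Stra6*-/-.

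*Ctsl*, an endopeptidase of lysosomes that also processes MHC class II in thymic epithelium, was lowest in VAS WT. Its values were 8929, 9515, 9301, 10378 and 9726 in VAS WT and 13805, 10497, 14149, 9624 and 14778 in VAD WT. They were 13333, 13236, 13077, 13222 and 13436 in VAS *Stra6*-/- and 15821, 14817, 14965, 14655 and 14652 in the libraries labelled as VAD *Stra6*-/-. Here VAD WT replicates 1, 3 and 5 were the high ones, above each VAS *Stra6*-/- library, and replicates 2 and 4 lay near VAS WT. *Ctsl* was the only member called higher in VAD WT, by 0.37 ± 0.0989 (SE, adjusted p = 0.0196, limma), and the only one without a call between the diets in *Stra6*-/-, at 0.18 ± 0.0989 (SE, adjusted p = 0.145, limma). The call in WT was lost when VAS WT replicate 1 or VAD WT replicate 3 or 5 was left out (adjusted p = 0.0546, 0.0547 and 0.0536, limma). Genotypes on the sufficient diet differed by 0.47 ± 0.0989 (SE, adjusted p = 0.0011, limma).

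*Ctsa*, *Ctsc* and *Ctsh* had narrower ranges. *Ctsa*, which also protects neuraminidase 1 and beta-galactosidase from degradation, measured 3867 to 4139 in VAS WT, 3301 to 4364 in VAD WT, 3195 to 3524 in VAS *Stra6*-/- and 6484 to 7408 in the libraries labelled as VAD *Stra6*-/-. It was lower in VAS *Stra6*-/-, at -0.26 ± 0.0709 (SE, adjusted p = 0.00907, limma) against VAS WT with no overlap, and did not pass between the diets in WT (-0.047, adjusted p = 0.762, limma). *Ctsc*, the dipeptidyl peptidase that activates granule serine proteases, measured 1240.0 to 1506 in VAS WT, 888 to 1095 in VAD WT, 1752 to 1925 in VAS *Stra6*-/- and 2048 to 2308 in the libraries labelled as VAD *Stra6*-/-. Its 4 groups did not overlap, and it was called in each comparison. *Ctsh*, an aminopeptidase, stayed within 2761 to 2934 in VAS *Stra6*-/- and 3116 to 3696 in the libraries labelled as VAD *Stra6*-/-, with VAS WT at 3117 to 3366 and VAD WT at 2779.9 to 3082. Its diet difference was -0.15 (adjusted p = 0.108, limma) in WT, which did not pass although the groups did not overlap.

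**Figure D2:**
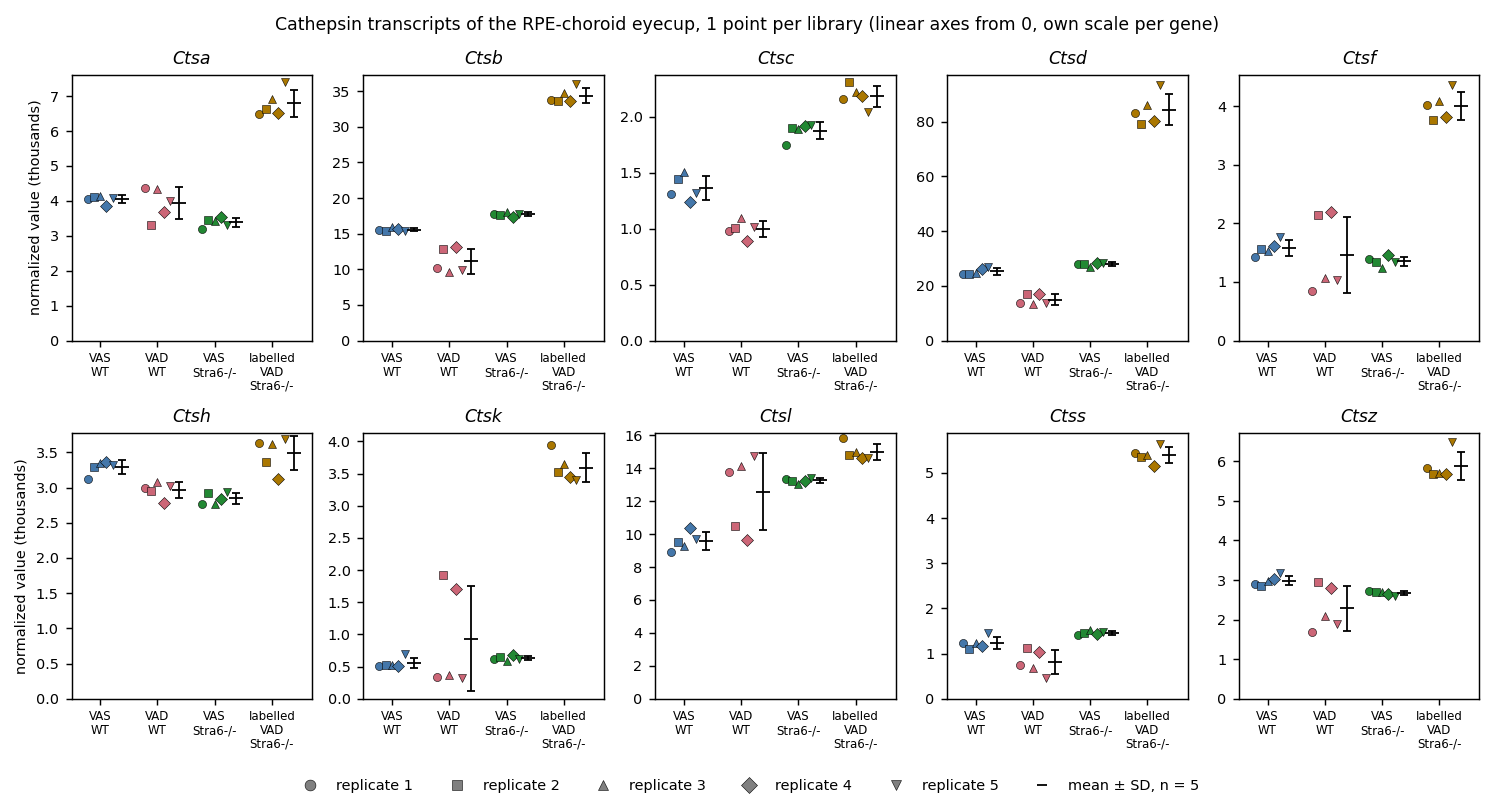
Normalized counts (linear axes from 0) of the 10 cathepsins in each of the 20 libraries, 1 point per library with the replicate as shape, and the mean ± SD of each group (n = 5) beside it. The means of the libraries labelled as VAD *Stra6*-/- are the highest for each gene, and VAD WT replicates 2 and 4 part from 1, 3 and 5 in 9 of the 10.

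On the sufficient diet, the differences between the genotypes were small, at most 0.47 in size on the log2 scale. Compared with VAS WT, *Ctsc* (log2 fold change 0.46, adjusted p = 1.81e-05, limma) and *Ctsl* (0.47) were higher and *Ctsa* (-0.26) and *Ctsh* (-0.21, adjusted p = 0.00827, limma) lower, and the other 6 did not pass. Of all 18807 genes tested, 26.6% were called in this comparison, 15.9% higher and 10.8% lower, and the median of the 10 members was 0.16 against 0.017 for all genes. The groups did not overlap for 6 of the 10, beside 32.5% of all genes. With only the 2 groups in the fit, 9 of the 10 were called, 5 higher and 4 lower (43.6% of all genes), and the same count was called without VAD WT replicates 2 and 4 (40.0%). The 5 added in both were *Ctsb*, *Ctsd* and *Ctss*, higher, and *Ctsf* and *Ctsz*, lower. Of the RPE markers 5 of 15 were lower and none higher, and their sum overlapped between the groups. Markers of other cell types differed more. Of the skeletal muscle markers 9 of 10 were higher, with sums of 10786 to 13059 in VAS WT and 27388 to 31034 in VAS *Stra6*-/-, and all 8 cone markers were lower, with sums of 2729 to 3522 and 769 to 846. Melanocyte and pigment markers summed to 54642 to 58438 and 76398 to 80588 (3 of 8 higher), and 7 of 18 macrophage and microglia markers were lower and none higher. The cornea and surface epithelium markers summed to 569441 to 701602 in VAS WT and 861474 to 893885 in VAS *Stra6*-/- (5 of 13 higher, 2 lower). Without VAD WT replicates 2 and 4, 8 of 8 melanocyte and pigment markers were higher. Of the 13 cornea and surface epithelium markers 10 were then higher and 2 lower. Among the RPE markers 3 were higher and 5 lower, and among the macrophage and microglia markers 1 was higher and 7 lower. The part of these markers in the cathepsin differences was not tested.

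In the libraries labelled as VAD WT, 5 of the 10 cathepsin transcripts were lower than in VAS WT and 1 was higher. *Ctsd* (-0.76, adjusted p = 1.44e-05, limma), *Ctss* (-0.67), *Ctsb* (-0.50), *Ctsc* (-0.45, adjusted p = 9.76e-05, limma) and *Ctsz* (-0.42) fell and *Ctsl* rose by 0.37 on the log2 scale. *Ctsa*, *Ctsf*, *Ctsh* and *Ctsk* did not pass. Here 8.78% of all genes were called, 3.29% higher and 5.5% lower, and the median of the members was -0.32 against 0.0017 for all genes. VAD WT and VAS WT did not overlap for 4 of the 10 and for 6.34% of all genes. When only these 2 groups were fitted, 3 members, *Ctsb*, *Ctsc* and *Ctsd*, remained lower and none was higher (3.4% of all genes). Without VAD WT replicates 2 and 4, 7 were lower and 1 higher (37.9% of all genes). *Ctsz* lost its call when VAS WT replicate 5 or VAD WT replicate 1 or 5 was left out (adjusted p = 0.0538, 0.0539 and 0.0599, limma). The RPE markers moved with these cathepsins, 12 of 15 being lower and none higher, as did 11 of 18 macrophage and microglia markers, whose sum was 10451 to 12422 in VAD WT and 16144 to 17475 in VAS WT. Without VAD WT replicates 2 and 4, 14 of the 15 RPE markers and 14 of the 18 macrophage and microglia markers were lower. The part of these markers in the result was not tested.

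Between the diets within *Stra6*-/-, most cathepsins were higher on the deficient diet. In the libraries labelled as VAD *Stra6*-/-, 9 of the 10 were higher than in VAS *Stra6*-/- and none was lower. The log2 fold changes were 2.51 for *Ctsk*, 1.89 for *Ctss*, 1.60 for *Ctsd*, 1.57 for *Ctsf* and 1.14 for *Ctsz*, followed by *Ctsa* (1.00, adjusted p = 9.47e-11, limma), *Ctsb* (0.95), *Ctsh* (0.29, adjusted p = 0.00015, limma) and *Ctsc* (0.22, adjusted p = 0.00792, limma). The 2 groups did not overlap for any of the 10, *Ctsl* included. The background was large, since 53.2% of all genes were called, 24.4% higher and 28.8% lower, and 51.3% did not overlap. The median of the members was 1.07 and that of all genes -0.066. Without VAD WT replicates 2 and 4 in the fit all 10 were called (60.7% of all genes), *Ctsl* with an adjusted p of 0.000403 (limma).

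Between the genotypes on the deficient diet, the libraries labelled as VAD *Stra6*-/- were higher than VAD WT for all 10 members. They share the former libraries with the comparison above, so the 2 are not independent. The differences were 2.81 for *Ctss*, 2.50 for *Ctsd*, 2.42 for *Ctsk*, 1.64 for *Ctsb* and 1.57 for *Ctsf* on the log2 scale. *Ctsz* (1.40, adjusted p = 7.1e-10, limma), *Ctsc* (1.13, adjusted p = 4.07e-12, limma) and *Ctsa* (0.79) came next, and *Ctsl* (0.27, adjusted p = 0.0229, limma) and *Ctsh* (0.23, adjusted p = 0.00129, limma) were the smallest. Called genes made up 55.9% of all tested, 26.2% higher and 29.6% lower, and 37.4% did not overlap, against 9 of the 10 members. The median was 1.48 for the members and -0.050 for all genes. Without VAD WT replicates 2 and 4, 9 members passed (63.1% of all genes) and *Ctsl* did not (0.073, adjusted p = 0.157, limma). The largest value was then that of *Ctsk* (3.37, adjusted p = 3.15e-18, limma), ahead of *Ctss* (3.13, adjusted p = 1.65e-16, limma), and *Ctsf* stood at 2.03 (adjusted p = 1.49e-15, limma). *Ctsl* also missed the threshold when VAD WT replicate 2 or 4 or replicate 1 of the libraries labelled as VAD *Stra6*-/- was left out singly (adjusted p = 0.0635, 0.0667 and 0.0521, limma), with only the 2 groups fitted (adjusted p = 0.112, limma) and on recovered reads (adjusted p = 0.102, edgeR).

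**Figure D3:**
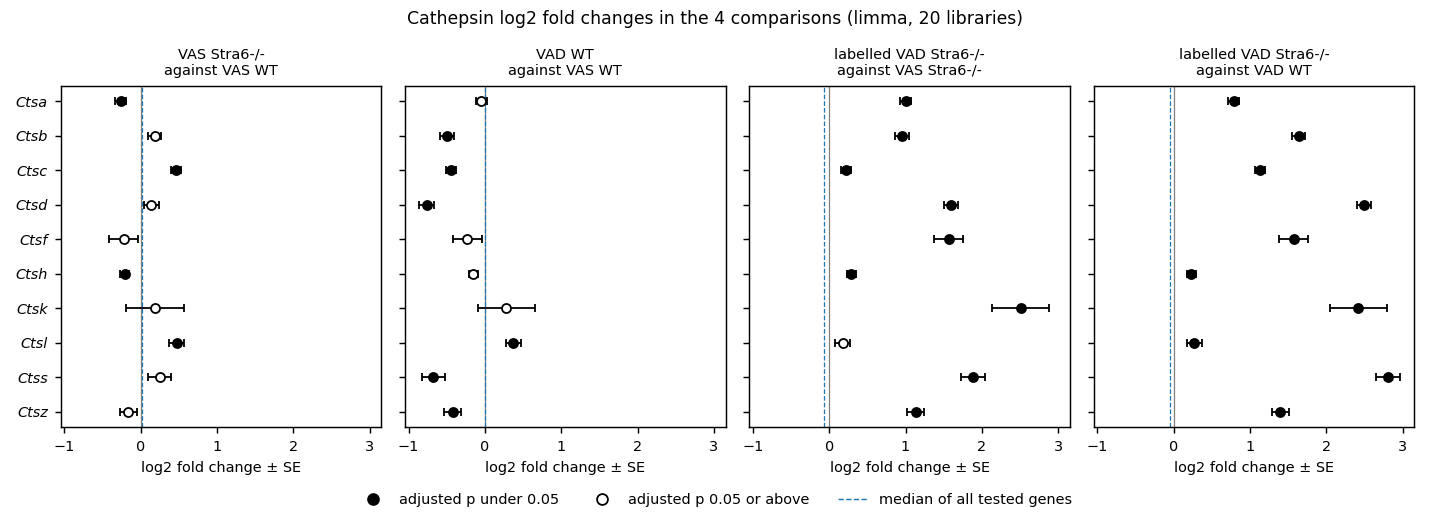
Log2 fold change with its standard error for each cathepsin in the 4 comparisons, filled where the adjusted p was under 0.05 (limma), with a dashed line at the median of all tested genes. The points lie below 0 for most genes in VAD WT against VAS WT and above 0 for all 10 where the libraries labelled as VAD *Stra6*-/- are compared.

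The test of the difference between the diet effects, *Stra6*-/- minus WT, passed for 9 of the 10, all positive, beside 44.2% of all genes (19.5% positive, 24.8% negative). The largest values were 2.56 ± 0.218 (SE, adjusted p = 3.83e-09, limma) for *Ctss*, 2.36 ± 0.135 (SE, adjusted p = 8.87e-12, limma) for *Ctsd* and 2.23 ± 0.529 (SE, adjusted p = 0.00159, limma) for *Ctsk* on the log2 scale. Without VAD WT replicates 2 and 4 the order changed, with 3.18 (adjusted p = 1.82e-15, limma) for *Ctsk*, 2.88 (adjusted p = 1.44e-13, limma) for *Ctss*, 2.49 (adjusted p = 1.21e-17, limma) for *Ctsd* and 2.25 (adjusted p = 5.43e-14, limma) for *Ctsf*, whose value over all libraries was 1.79. *Ctsl* had -0.20 (adjusted p = 0.271, limma) and was the exception. Its value was -0.40 (adjusted p = 4.91e-06, limma) without these 2 replicates, where all 10 passed, 9 positive and 1 negative (54.7% of all genes), and -0.29 without replicate 4 alone (adjusted p = 0.0434, limma). The medians were 1.50 for the members and -0.093 for all genes.

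Ranked by mean, the libraries labelled as VAD *Stra6*-/- came first for each of the 10, and VAD WT came last for *Ctsb*, *Ctsc*, *Ctsd*, *Ctss* and *Ctsz*. For *Ctsc* each step in the order passed, from the libraries labelled as VAD *Stra6*-/- through VAS *Stra6*-/- and VAS WT to VAD WT. Neighbouring groups in the order of *Ctsh* did not pass in any of the 3 pairs, the first of which was the libraries labelled as VAD *Stra6*-/- against VAS WT. For *Ctsb*, *Ctsd* and *Ctss* the 2 VAS groups, in the middle, did not pass against each other, and the steps on both sides of them did. Without VAD WT replicates 2 and 4 in the fit the 2 VAS groups passed for all of these (adjusted p = 4.68e-05, 0.0147 and 0.0304, limma). For *Ctsf*, *Ctsk* and *Ctsz* only the step down from the libraries labelled as VAD *Stra6*-/- passed, for *Ctsl* only that from VAD WT to VAS WT, and for *Ctsa* the first step and that from VAD WT to VAS *Stra6*-/-. The order rests in part on VAD WT replicates 2 and 4, since without them VAD WT passed below VAS WT for *Ctsf* (-0.69) and *Ctsk* (-0.67). For *Ctsz*, where these groups were not neighbours, VAD WT passed below VAS WT with all libraries (-0.42). It also did so without the 2 replicates (-0.67, adjusted p = 1.17e-08, limma). The first step of *Ctsl* passed without them as well (adjusted p = 0.000403, limma). Beyond the 4 comparisons above, this order uses the libraries labelled as VAD *Stra6*-/- against VAS WT, where 52.7% of all genes were called, and VAD WT against VAS *Stra6*-/-, where 35.3% were.

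Markers of other cell types moved with the libraries labelled as VAD *Stra6*-/- as well. Summed macrophage and microglia markers were 35868 to 37587 there and 15807 to 17199 in VAS *Stra6*-/-, and 15 of the 18 were higher than in VAD WT, *Itgam* (-2.44) and *Cx3cr1* (-0.68) being lower and *Aif1* not passing. Cornea and surface epithelium markers summed to 21791 to 28868 there, to 1139234, 384629, 1104899, 383038 and 1118772 in VAD WT replicates 1 to 5 and to 861474 to 893885 in VAS *Stra6*-/-, and all 13 were lower than in VAD WT. The RPE markers, at 538543 to 587511, and the sclera and fibroblast markers, at 236383 to 249597, did not overlap with the other groups. The part of these markers in the cathepsin values was not tested.

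Set against the sum of a marker list within the same library, the cathepsins did not all keep their direction. *Ctsd* was 19.2 ± 0.964% (SD, n = 5) of the RPE marker sum in VAS WT, 30.9 ± 4.58% in VAD WT, 21.5 ± 0.171% in VAS *Stra6*-/- and 15.0 ± 0.627% in the libraries labelled as VAD *Stra6*-/-, an order that is not that of its level. *Ctsb* was 22.8 ± 2.85% of that sum in VAD WT and 6.10 ± 0.154% in the libraries labelled as VAD *Stra6*-/-. Against the macrophage and microglia sum, *Ctss* was 7.35 ± 0.625% in VAS WT, 6.99 ± 1.84% in VAD WT, 8.82 ± 0.48% in VAS *Stra6*-/- and 14.7 ± 0.216% in the libraries labelled as VAD *Stra6*-/-. *Ctsd* was 151 ± 2.71%, 132 ± 6.05%, 168 ± 3.29% and 230 ± 12.0% of that sum in the same 4 groups, which is the order of its level. *Ctsz* was 17.9 ± 0.205% of the same sum in VAS WT and 16.0 ± 0.7% in the libraries labelled as VAD *Stra6*-/-. *Ctsk* was 1.19 ± 0.169% of the sclera and fibroblast sum in VAS WT, 0.815 ± 0.207% in VAD WT, 1.36 ± 0.059% in VAS *Stra6*-/- and 1.48 ± 0.0988% in the libraries labelled as VAD *Stra6*-/-. *Ctsf* was 3.39 ± 0.309%, 1.64 ± 0.392%, 2.92 ± 0.173% and 1.65 ± 0.0756% of that sum in the same order of groups. These percentages compare RNA within a library and are given without a test.

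**Figure D4:**
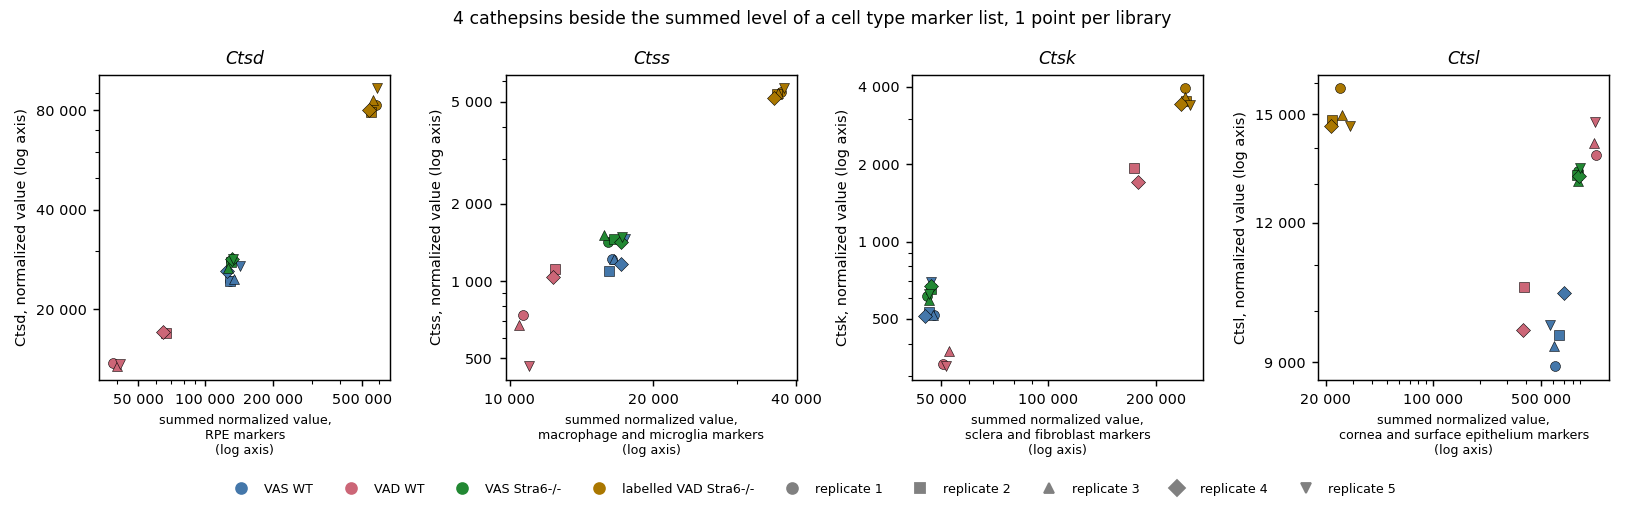
Normalized counts of *Ctsd*, *Ctss*, *Ctsk* and *Ctsl* against the summed normalized value of a marker list in the same library (both axes log), 1 point per library with the group as colour and the replicate as shape. The libraries labelled as VAD *Stra6*-/- lie at the upper right for *Ctsd*, *Ctss* and *Ctsk* and at the upper left for *Ctsl* against cornea and surface epithelium markers.

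Of 13 other cathepsin genes in the table, only 5 had enough reads to be tested. None of these 5 passed between VAD WT and VAS WT or between the genotypes on either diet, and without VAD WT replicates 2 and 4, 1 of them, *Ctso* (0.39, adjusted p = 0.000806, limma), was higher in VAD WT than in VAS WT. *Ctso* (0.42, adjusted p = 0.00348, limma) and *Ctsw* (1.91, adjusted p = 0.00198, limma), the latter a protease of cytotoxic lymphocytes at only 3.38 to 11.2 and 15.1 to 51.6, were higher in the libraries labelled as VAD *Stra6*-/- than in VAS *Stra6*-/-.

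The inhibitors of cysteine cathepsins moved in both directions. *Cst3*, cystatin C, an abundant secreted inhibitor, measured 35004 to 41894 in VAS WT, 14215 to 26851 in VAD WT, 36089 to 42208 in VAS *Stra6*-/- and 120216 to 133778 in the libraries labelled as VAD *Stra6*-/-. Its log2 fold changes were -0.99 (adjusted p = 0.000271, limma) in VAD WT against VAS WT and 2.78 (adjusted p = 3.08e-12, limma) in the libraries labelled as VAD *Stra6*-/- against VAD WT. In the latter comparison it was the only 1 of the 11 tested inhibitors to rise, and 6 fell: *Csta1* (-5.10), *Stfa1* (-5.91), *Stfa3* (-5.92), *Cst6* (-1.99), *Kng1* (-2.67) and *Cstb* (-1.0). Of all genes, 55.9% were called there, 26.2% higher and 29.6% lower. *Csta1*, *Stfa1* and *Stfa3* are close copies of each other, so reads could be split between them, and cystatins of this type and *Cst6* are known from skin-like epithelia. The cornea and surface epithelium markers were lower in the same libraries, and their part was not tested. Of the 16 inhibitors in the table the median over those tested was -1.0. The fitted values of *Stfa1*, *Stfa3* and *Kng1* rest on few reads in the libraries labelled as VAD *Stra6*-/-, where they measured 0 to 13.2, 0 to 7.90 and 0 to 5.92, and depend on the pseudocount. On the sufficient diet none of the 11 passed between the genotypes (26.6% of all genes did). Without VAD WT replicates 2 and 4, 1, *Csta1* (-0.45, adjusted p = 0.0314, limma), was lower in *Stra6*-/- (40.0% of all genes were called). In VAD WT against VAS WT, leaving out these 2 replicates gave 5 inhibitors higher, *Cst6*, *Csta1*, *Cstb*, *Stfa1* and *Stfa3*. It gave 1 lower, *Cst3* (-1.32, adjusted p = 1.38e-12, limma), beside 37.9% of all genes called.

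Genes that deliver and activate cathepsins mostly rose with them. Of 19 tested, 15 were higher in the libraries labelled as VAD *Stra6*-/- than in VAD WT, 1 was lower and 3 did not pass, with a median of 0.75. Of all genes, 26.2% were higher and 29.6% lower there. The endocytic receptor *Lrp2* (2.66, adjusted p = 5.59e-15, limma), *Psap* (2.41, adjusted p = 1.16e-12, limma) and the tetraspanin *Cd63* (2.09, adjusted p = 1.56e-11, limma) were highest, and *Lgmn*, the endopeptidase that cleaves several cathepsins to the double-chain form, rose by 1.07. Among the genes of the mannose 6-phosphate signal, *M6pr* (0.25) and *Gnptg* (0.49) were higher, *Gnptab* (-1.0, adjusted p = 1.64e-06, limma), which encodes the catalytic subunits of the enzyme that starts it, was the 1 lower, and *Igf2r* (-0.10, adjusted p = 0.345, limma) and *Nagpa* (0.17, adjusted p = 0.289, limma) did not pass. *Neu1* (1.13) and *Glb1* (2.09), the partners of cathepsin A, were higher. In VAD WT against VAS WT, *Psap*, *Cd63*, *Lrp2*, *M6pr* and *Neu1* were lower, none was higher and 14 did not pass (8.78% of all genes were called). Without VAD WT replicates 2 and 4, 12 were lower and 2 higher (37.9% of all genes). Against VAS *Stra6*-/-, 13 were higher in the libraries labelled as VAD *Stra6*-/-, *Igf2r* and *Gnptab* were lower and 4 did not pass (53.2% of all genes were called).

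Other lysosomal hydrolases went the same way. In the libraries labelled as VAD *Stra6*-/-, 37 of 39 were higher than in VAD WT (26.2% of all genes were), *Acp5* (-0.54, adjusted p = 0.00913, limma), the tartrate-resistant phosphatase that marks osteoclasts, was lower, and *Idua* (0.11, adjusted p = 0.442, limma) did not pass. *Aga* (2.17, adjusted p = 2.39e-10, limma), *Smpd1* (2.12, adjusted p = 1.29e-14, limma) and *Glb1* had the highest values, and the median was 1.13. Against VAS *Stra6*-/-, 36 were higher and 1 lower (53.2% of all genes were called). In VAD WT against VAS WT, 8 were lower, none higher and 31 did not pass (8.78% of all genes were called). Without VAD WT replicates 2 and 4, 28 were lower (37.9%). On the sufficient diet 5 were higher and 4 lower in *Stra6*-/-, near the share of all genes called (26.6%). Without those replicates 9 were higher and 7 lower, again near that share (40.0%). *Lgmn*, *Neu1* and *Glb1* also stand in the list of delivery genes and *Acp5* in that of osteoclast markers.

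Lysosomal membrane proteins and subunits of the V-ATPase, the proton pump, were more divided. Of 42 tested, 30 were higher, 6 lower and 6 not called in the libraries labelled as VAD *Stra6*-/- against VAD WT, with a median of 0.57. Of all genes, 55.9% were called there. *Atp6v0d2* (2.47, adjusted p = 1.07e-08, limma), a subunit known from osteoclasts and macrophages, *Ostm1* (2.22, adjusted p = 1.76e-11, limma) and *Cd63* led, and the subunit *Atp6v1c2* (-3.06, adjusted p = 3.04e-05, limma), at 15.4 to 33.8 in VAD WT and 0 to 5.12 in the libraries labelled as VAD *Stra6*-/-, fell farthest. Against VAS *Stra6*-/- 27 were higher and 5 lower (53.2% of all genes were called), and in VAD WT against VAS WT none was higher and 5 lower (8.78%). Between the genotypes on the sufficient diet 7 were higher and 4 lower, near the share of all genes called (26.6%). Without VAD WT replicates 2 and 4 the latter 2 comparisons gave 7 higher and 14 lower (37.9% of all genes), and 13 higher and 9 lower (40.0%).

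Among the transcription factors known to act on lysosomal genes, *Mitf* (1.76, adjusted p = 9.76e-07, limma), which also drives pigment cell genes, and *Tfec* (2.66, adjusted p = 0.00166, limma) were higher in the libraries labelled as VAD *Stra6*-/- than in VAD WT, and *Tfeb* (0.093, adjusted p = 0.564, limma) and *Tfe3* (0.045, adjusted p = 0.634, limma) did not pass. *Tfec* was scarce, at 0 to 18.9 in VAD WT and 12.1 to 57.9 in the libraries labelled as VAD *Stra6*-/-. *Mitf* was lower in VAD WT than in VAS WT (-0.86, adjusted p = 0.0194, limma). Without VAD WT replicates 2 and 4, 1 of these 4 factors was higher and 1 lower in that comparison (37.9% of all genes were called). On the sufficient diet *Tfe3* was higher in *Stra6*-/- (0.33), and between the diets within *Stra6*-/- it was lower (-0.24) while *Mitf* was higher (0.94). These are transcript levels and carry no measure of the location of the proteins, on which their activity also depends.

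Of 15 substrates and partners of the members, 8 were higher in the libraries labelled as VAD *Stra6*-/- than in VAD WT, 2 lower and 5 not called, so that 10 of 15 were called beside 55.9% of all genes. The MHC class II genes *H2-Aa* (1.37, adjusted p = 1.09e-12, limma) and *H2-Ab1* (0.87) and the invariant chain *Cd74* (1.07, adjusted p = 4.2e-12, limma), a substrate of cathepsin S, were higher, as was *App* (1.30). *Eln* (-0.63, adjusted p = 0.000684, limma), elastin, was lower, and *Col1a1* (0.084, adjusted p = 0.805, limma), a collagen cut by cathepsin K, did not pass in the fit of all 20 libraries. Without VAD WT replicates 2 and 4, *Col1a1* was called higher, as were all 12 sclera and fibroblast markers, of which it is 1. Of the substrates and partners 9 were then higher and 2 lower (63.1% of all genes were called). In VAD WT against VAS WT 1 was higher and none lower (8.78% of all genes were called), and 1 higher and 5 lower without VAD WT replicates 2 and 4 (37.9%). Both counts were near the share of all genes. On the sufficient diet 1 was higher and 3 lower in *Stra6*-/-, 4 of 15 beside 26.6% of all genes, and without those replicates 2 were higher and 6 lower (40.0% of all genes).

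**Figure D5:**
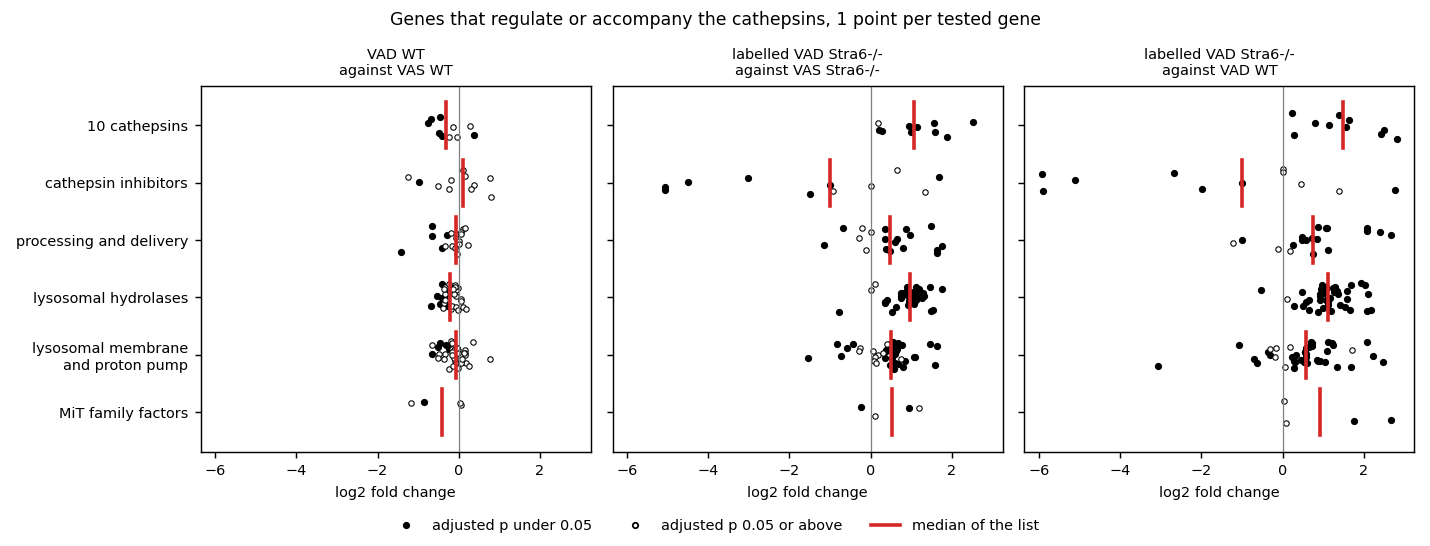
Log2 fold change of each tested gene in the cathepsins and 5 accompanying lists, in 3 comparisons, filled where the adjusted p was under 0.05 (limma), with the median of the list as a red line. For the libraries labelled as VAD *Stra6*-/- against VAD WT, 37 of 39 lysosomal hydrolases are higher, while 6 of 11 cathepsin inhibitors are lower. Of all genes, 26.2% are higher and 29.6% lower there.

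Likeness of profile was measured as the root mean square difference of log2 values, each gene set to its own mean over the 20 libraries, among 12299 genes with a mean of at least 100. The nearest 3 genes were *Psap* (0.0998), *Clu* (0.142) and *Ociad2* (0.143) for *Ctsd*, *Trpm1* (0.0883), *Reln* (0.103) and *Rdh11* (0.105) for *Ctsb*, *Degs1* (0.147), *Ociad2* (0.147) and *Tbc1d1* (0.169) for *Ctss*, and *Hacd3* (0.0888), *Fuca1* (0.0919) and *Emb* (0.0956) for *Ctsz*, with the difference in parentheses. *Trpm1* is a channel gene of melanocytes and bipolar cells, *Rdh11* a retinol dehydrogenase of the RPE and photoreceptors, and *Fuca1* a lysosomal hydrolase. For *Ctsk* they were *Itm2a* (0.266), *Sfrp4* (0.276) and *Pdgfrl* (0.285), and for *Ctsf* *Fstl1* (0.11), *Fcgrt* (0.147) and *Olfm1* (0.148). *Sfrp4* and *Fstl1* encode secreted proteins of connective tissue. *Ctsl* was nearest to *Cacybp* (0.0934), *Pcna* (0.111) and *Strap* (0.114), *Ctsa* to *Ociad1* (0.0676), *Srebf1* (0.0777) and *Skp1a* (0.0939), *Ctsc* to *Sft2d2* (0.137), *Acot11* (0.146) and *Trib1* (0.154) and *Ctsh* to *Lzts2* (0.0879), *Dcaf8* (0.089) and *Cdc37* (0.0896). All share the same libraries and group differences, so these are descriptions of profile. For scale, the members' own root mean square around their mean was from 0.13 for *Ctsh* to 1.26 for *Ctsk*, so a small difference from *Ctsh* is reached by any gene that varies little.

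Among the 10 members, *Ctsb* and *Ctsz* lay closest (0.186), followed by *Ctsf* and *Ctsz* (0.222) and by *Ctsd* and *Ctss* (0.231). *Ctsk* and *Ctss*, although next to each other on chromosome 3, differed by 0.586, and *Ctsh* and *Ctsk* were farthest apart (1.20).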

How the data were processed

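The authors aligned reads to mm10 (GRCm38) with STAR 2.5.3a, quantified genes with RSEM 1.2.30 and normalized with DESeq2 1.32.0, per the labels and the study's methods. The deposited values are a normalized signal, gene counts divided by 1 size factor per library. Divided by the step of their library, 100% of values lay within 0.01 of a whole number in each library. The count tests used the recovered reads of 19 libraries. The library labelled as VAD *Stra6*-/- replicate 1 stayed out of them, although its values met the same check. Median depth was 17790113 reads, which limits the precision of low genes.

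Genes with at least 5 reads in all were tested with limma 3.58.1 (R 4.3.3) on log2(value + 1), which understates changes of low genes, in 1 model of 4 group means over all 20 libraries, two-sided, with Benjamini-Hochberg adjustment over 18807 genes and a threshold of 0.05. Alternatives were edgeR 4.0.16 and DESeq2 1.42.0 on recovered reads, other filters, pseudocounts and scalings, and fewer libraries. Tests were checked on simulated data. All 10 members are named, with all delivery genes and inhibitors open to naming, and in the other lists the 3 largest called changes with a mean of at least 100. Further genes named there were chosen after their values were seen. Some genes of the lists are not reported here. Members and lists were chosen with earlier results of these data known.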

Additional observations from a re-analysis of the deposited data

Results flagged for a closer look

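In a group of 5 libraries, 1 value stood apart from the other 4 by more than Dixon's 95% limit in 4 of the 40 groups examined, where chance gives about 1 in 20. These were *Ctsc* in VAS *Stra6*-/- replicate 1 (1752, low), *Ctsk* in VAS WT replicate 5 (697, high), and, in the libraries labelled as VAD *Stra6*-/-, *Ctsl* in replicate 1 (15821, high) and *Ctsz* in replicate 5 (6486, high).

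The diet effect differed between the genotypes, by the interaction term (adjusted p under 0.05, limma), for 9 members. *Stra6*-/- minus WT on the log2 scale was 1.05 for *Ctsa*, 1.45 for *Ctsb*, 0.67 for *Ctsc*, 2.36 for *Ctsd*, 1.79 for *Ctsf*, 0.44 for *Ctsh*, 2.23 for *Ctsk*, 2.56 for *Ctss* and 1.56 for *Ctsz*. Each rests on the libraries labelled as VAD *Stra6*-/-, in which *Stra6* itself goes against the label, and on VAD WT, in which *Stra6* was below VAS WT.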

How the results depend on the processing

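Most results kept their direction and side of the threshold. Over all alternatives, 1054 of the members' log2 fold changes did so, 16 gained a call, 15 lost one and 5 reversed. The count of members called moved by over 1.5 times in 5 cases. For VAS *Stra6*-/- against VAS WT it went from 4 to 9 with only the 2 groups fitted, to 9 without VAD WT replicates 2 and 4 and to 0 with a log2 fold change beyond 1 required as well. For VAD WT against VAS WT it went from 6 to 3 with only the 2 groups fitted and to 0 with the fold limit. Leaving out 1 library at a time gave 4 to 6 members in the latter comparison and 9 to 10 in the libraries labelled as VAD *Stra6*-/- against VAD WT and in the interaction. The reversals were all in VAD WT against VAS WT. Without replicates 2 and 4 of VAD WT, *Ctsa* was 0.066 and *Ctsk* -0.67, and leaving out single libraries took *Ctsa* from -0.085 to 0.015 and *Ctsk* from -0.10 to 0.54. The cause was not tested.

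Of all genes, 5010 were called in VAS *Stra6*-/- against VAS WT, 8208 with only the 2 groups fitted and 7524 without VAD WT replicates 2 and 4. In VAD WT against VAS WT 1652 were called, 639 with only the 2 groups, 7124 without those replicates and 2651 without replicate 4 alone. No scaling moved the median of all genes by over 0.1. With a replicate block the counts of members called were 4, 6, 9, 10 and 9 in the 5 comparisons, as without it. Around their group means, 30 pairs of same-numbered libraries correlated by -0.134 to 0.0948 (median 0.00596), and 10 of 60 correlated best with their own number. These values show no pairing by number, but they cannot tell whether such libraries were handled together. The counts for the lists of other genes without VAD WT replicates 2 and 4 were chosen after seeing the data.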
